A study of Mus musculus with 47 samples.

Results

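The Slc22 organic ion transporters described here are 9 genes taken by symbol from the count table: Slc22a2, Slc22a6, Slc22a7, Slc22a8, Slc22a12, Slc22a13, Slc22a26, Slc22a28 and Slc22a30. They are 9 of 22474 genes in the table, and all 9 are among the 18786 genes that passed the filter on low counts. The data are RNA sequencing of polyadenylated RNA from mouse kidney, named metanephros in the labels, in 47 libraries. Mice of 3 inbred strains received a diet with 44% fat and fiber, described in the protocol as rich in fat and sugar, or a control diet with 10% fat and fiber, from 6 weeks of age, and tissue was taken at 15 weeks. The mice were labelled wild type with no other treatment, so strain, sex and diet are what separates the groups. On 44% fat there were 4 libraries each of NZO/HlLtJ females and males, CAST/EiJ females and males, and C57BL/6J females and males. On 10% fat there were 4 libraries each of the same strains and sexes, except 3 of CAST/EiJ males. NZO/HlLtJ is an obesity-prone strain, CAST/EiJ is derived from wild Mus musculus castaneus, and C57BL/6J is the common laboratory strain from which the mouse reference genome was built. Whether the libraries come from different animals is not in the labels, and the p-values below measure the spread between libraries.

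Transporters of the Slc22 family carry small organic ions across the plasma membrane. In the proximal tubule the basolateral members take up drugs, toxins and metabolites from the blood for secretion into the urine, and luminal members exchange urate and other anions with the filtrate. Several of them are textbook examples of rodent kidney genes that differ between the sexes.

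Of the 9 genes, 6 lie on chromosome 19 in the deposited GRCm38 annotation. Slc22a8 (chr19:8591254-8611834, plus strand) ends 6162 bases before Slc22a6 (chr19:8617996-8628299, plus strand). Slc22a26 (chr19:7781041-7802667), Slc22a28 (chr19:8062209-8131982) and Slc22a30 (chr19:8335371-8405111) lie on the minus strand of the same stretch, which spans 847258 bases from the start of Slc22a26 to the end of Slc22a6. Slc22a29, which is no member, lies between Slc22a28 and Slc22a30 (chr19:8160165-8218900, minus strand). Slc22a12 lies elsewhere on the same chromosome (chr19:6535845-6543019, minus strand), Slc22a2 and Slc22a7 are on chromosome 17 (chr17:12584189-12628465, plus strand, and chr17:46432185-46438477, minus strand), and Slc22a13 is on chromosome 9 (chr9:119193002-119209105, minus strand). All 9 are annotated as protein coding.

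Upstream sequences of 5 genes of this stretch are shown because 3 neighbours, Slc22a28, Slc22a30 and Slc22a29, share much of their sequence while their mRNA levels differ between the sexes in opposite directions, and because Slc22a26 and Slc22a6 lie in the same stretch with other patterns. Each runs 5′ to 3′ from 200 to 11 bases upstream of the RefSeq start on GRCm38.p6 and has 190 bases. The windows are chr19:8131993-8132182 for Slc22a28, chr19:8405116-8405305 for Slc22a30, chr19:8218911-8219100 for Slc22a29, chr19:7802678-7802867 for Slc22a26, all on the minus strand, and chr19:8617796-8617985 on the plus strand for Slc22a6. Capitals mark matches, on either strand, to 4 short motifs: GTTAAT, which is part of the site of HNF1 factors, TTCNNNGAA of STAT factors, AGAACA, which is part of the site of androgen and glucocorticoid receptors, and CAAAGTCCA of HNF4 factors.
Slc22a28: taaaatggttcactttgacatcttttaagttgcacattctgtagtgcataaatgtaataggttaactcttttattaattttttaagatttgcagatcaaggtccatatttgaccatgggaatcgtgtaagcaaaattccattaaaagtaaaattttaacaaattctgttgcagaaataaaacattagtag
Slc22a30: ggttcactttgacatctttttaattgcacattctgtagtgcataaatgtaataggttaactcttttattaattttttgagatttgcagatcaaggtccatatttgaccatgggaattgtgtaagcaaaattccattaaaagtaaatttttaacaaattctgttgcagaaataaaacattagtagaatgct
Slc22a29: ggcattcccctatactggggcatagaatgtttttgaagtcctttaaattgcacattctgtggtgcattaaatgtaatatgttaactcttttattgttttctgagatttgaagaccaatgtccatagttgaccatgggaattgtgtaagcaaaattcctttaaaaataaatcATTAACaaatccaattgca
Slc22a26: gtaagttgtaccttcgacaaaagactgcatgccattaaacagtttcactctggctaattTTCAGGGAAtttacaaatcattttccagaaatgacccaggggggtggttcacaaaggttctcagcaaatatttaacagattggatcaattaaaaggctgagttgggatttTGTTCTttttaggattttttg
Slc22a6: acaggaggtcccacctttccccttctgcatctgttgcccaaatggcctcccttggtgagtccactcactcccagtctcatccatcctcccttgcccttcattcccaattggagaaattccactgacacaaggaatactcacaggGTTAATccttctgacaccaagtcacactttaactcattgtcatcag
Aligned with each other, the Slc22a28 and Slc22a30 windows were identical at 179 of 184 aligned bases (97.3%). Slc22a29 matched Slc22a28 at 143 of 167 bases (85.6%) and Slc22a30 at 141 of 165 (85.5%). The windows of Slc22a28 and Slc22a30 hold none of the 4 motifs. Slc22a6 holds GTTAAT on the strand shown and Slc22a29 holds it on the other strand, as ATTAAC. The same window of Slc22a8, also in this stretch but not shown, holds 1 match to GTTAAT. Slc22a26 holds TTCAGGGAA, a match to TTCNNNGAA, and TGTTCT, which is AGAACA on the other strand. Among all 32851 RefSeq promoter windows of this length, GTTAAT occurred in 4.89%, TTCNNNGAA in 5.23%, AGAACA in 12.3% and CAAAGTCCA in 0.298%. These matches describe letters only.

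The libraries held 34.4 to 58.4 M counts (median 44.8 M). Levels are given as counts per M counts of the library (CPM), with library sizes scaled by TMM. Differences are log2 fold changes with their standard error (SE) from 1 edgeR quasi-likelihood fit over all libraries, positive where the level was higher in females, on 44% fat or in the strain named first. A gene is called where its Benjamini-Hochberg adjusted p over all 18786 genes was under 0.05. Xist, at 863 to 1401 CPM in libraries labelled female and at most 2.43 CPM in those labelled male, and Ddx3y, at most 0.0702 CPM in females and 48.6 to 99.4 CPM in males, matched the sex labels in every library. The sample titles hold 3 runs of ID numbers, 77, 81 and 89, whose meaning the labels do not give. The fit has a term for them, and only run 77 holds all 12 groups: NZO/HlLtJ females on 44% fat are in runs 77 and 89 and those on 10% fat in runs 77 and 81, and the males the reverse. Values within a run are given beside the results.

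Per kilobase of exon, Slc22a12, the luminal urate exchanger URAT1, was the most abundant member in 4 of the 6 strain and sex groups. Its median was 195 CPM per kb in NZO/HlLtJ females and 376 in NZO/HlLtJ males, and 261 in C57BL/6J females and 569 in C57BL/6J males. In CAST/EiJ females Slc22a8 came first (median 181 CPM per kb, range 157 to 214), and its range did not overlap that of Slc22a12 (79.4 to 129). In CAST/EiJ males Slc22a28 came first at 467 CPM per kb (316 to 538), ahead of Slc22a12 (297 to 402) and Slc22a6 (277 to 344), whose ranges overlapped with its own. The lowest levels per kb were those of Slc22a30 in females of each strain and in CAST/EiJ males, and of Slc22a26 in NZO/HlLtJ and C57BL/6J males. Slc22a30 spanned the widest range of the 9 genes, 0.669 to 513 CPM, from 29 counts in a CAST/EiJ female to 24200 counts in a male library. Many neighbours in these orders overlapped: in NZO/HlLtJ females Slc22a7 (80.4 to 113 CPM per kb), Slc22a13 (79.0 to 95.2) and Slc22a6 (72.1 to 108) could not be ranked by their library ranges.

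**Figure D1:**
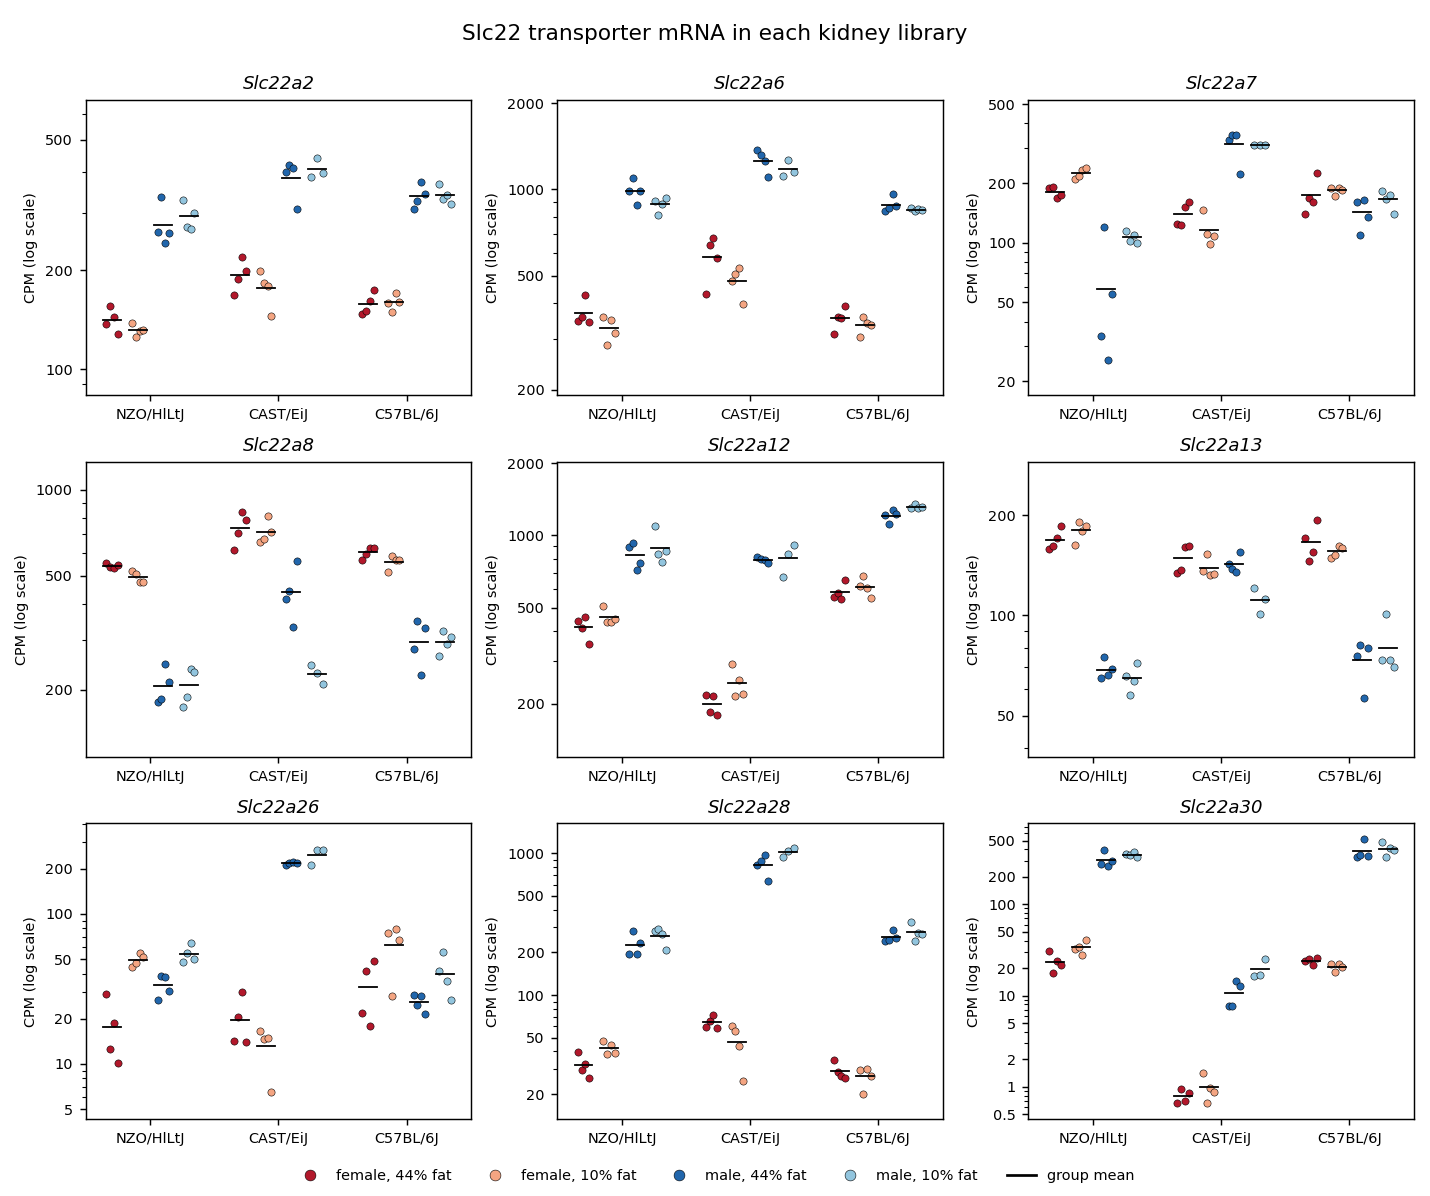
CPM of the 9 Slc22 genes (log axis, a panel per gene) in each of the 47 libraries, by strain, with females left of males and 44% fat left of 10% fat; a point is a library and a line the group mean. Slc22a28 and Slc22a30 sit lower in females than in males in each strain, Slc22a8 sits higher, and Slc22a30 in CAST/EiJ falls to between 0.669 and 25.4 CPM.

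Sex divided the 9 genes into those lower in females, those higher in females, and Slc22a7, whose called direction depended on the strain. Slc22a26 was called lower in females of NZO/HlLtJ and CAST/EiJ, and its positive value in C57BL/6J was not called. In NZO/HlLtJ all 9 were called, 3 higher and 6 lower in females, where 49.9% of all genes tested were called, 25.4% higher and 24.5% lower. In CAST/EiJ all 9 were called, 2 higher and 7 lower, against 47.6% of all genes, 23.7% higher and 23.9% lower. In C57BL/6J 7 were called, 2 higher and 5 lower, against 47.9% of all genes, 25.1% higher and 22.7% lower. The median size of the log2 fold change over the members was 1.36 in NZO/HlLtJ, 1.30 in CAST/EiJ and 1.08 in C57BL/6J, where the median over all genes was 0.25, 0.26 and 0.25. In bulk tissue a lower level can mean fewer cells of a type or less RNA per cell, and these cannot be told apart.

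Slc22a2, the basolateral organic cation transporter OCT2, which takes up metformin and creatinine, was lower in females of each strain. NZO/HlLtJ females had 125 to 156 CPM (median 135) and NZO/HlLtJ males 243 to 336 (median 269.7). CAST/EiJ females had 145 to 220 CPM (median 186) and CAST/EiJ males 307 to 442 (median 399). C57BL/6J females had 147 to 174 CPM (median 159) and C57BL/6J males 309 to 371 (median 335). No female library reached the lowest male library of its strain. The log2 fold change was -1.06 (SE 0.07, edgeR adjusted p = 1.07e-16) in NZO/HlLtJ, -1.09 (SE 0.07, adjusted p = 1.39e-16) in CAST/EiJ and -1.10 (SE 0.07, adjusted p = 6.23e-17) in C57BL/6J. Females therefore had 0.481, 0.469 and 0.467 times the male level in these strains.

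Slc22a6, the basolateral organic anion exchanger OAT1, was lower in females, and its partner Slc22a8, OAT3, the gene next to it on the same strand, was higher. Slc22a6 had 287 to 429.7 CPM (median 348) in NZO/HlLtJ females and 812 to 1093 (median 923) in NZO/HlLtJ males. It had 399 to 676 CPM (median 519) in CAST/EiJ females and 1102 to 1369.8 (median 1258) in CAST/EiJ males, and 305 to 391 CPM (median 349) in C57BL/6J females and 842 to 961 (median 855) in C57BL/6J males. The sexes did not overlap in any strain, and the log2 fold change was -1.43 in NZO/HlLtJ, -1.21 in CAST/EiJ and -1.34 in C57BL/6J (SE 0.07 each, edgeR adjusted p = 3.3e-21, 2.29e-18 and 5.04e-20). Slc22a8 had 475 to 553 CPM (median 529) in NZO/HlLtJ females and 175 to 247 (median 201) in NZO/HlLtJ males. It had 615 to 836 CPM (median 709) in CAST/EiJ females and 209.9 to 565 (median 331) in CAST/EiJ males, and 516 to 628 CPM (median 577) in C57BL/6J females and 226 to 347 (median 298) in C57BL/6J males. Here too the sexes did not overlap, with each female library above each male library of its strain. The log2 fold change of Slc22a8 was 1.33 (SE 0.08, adjusted p = 1.81e-17) in NZO/HlLtJ, 1.18 (SE 0.08, adjusted p = 3.82e-15) in CAST/EiJ and 0.99 (SE 0.08, adjusted p = 1.62e-13) in C57BL/6J.

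Among the luminal transporters, Slc22a12 was lower in females of each strain. It had 355 to 508 CPM (median 440.4) in NZO/HlLtJ females and 716 to 1090.3 (median 849.9) in NZO/HlLtJ males, 179.7 to 293 (median 216) in CAST/EiJ females and 673 to 909 (median 795) in CAST/EiJ males, and 544 to 676 (median 591) in C57BL/6J females and 1113 to 1353 (median 1288) in C57BL/6J males. None of these ranges overlapped, and the log2 value was -0.97 in NZO/HlLtJ, -1.86 in CAST/EiJ and -1.08 in C57BL/6J (SE 0.07 each, edgeR adjusted p = 1.22e-15, 5.44e-24 and 1.2e-16). Of the 100-base words in Slc22a12 transcripts, 24.7% also occur, on either strand, in transcripts of Nrxn2. Depending on how strand was used in counting, reads from those stretches may be assigned to either gene. Nrxn2 had medians of 12.6 CPM in NZO/HlLtJ females and 21.7 in males, 6.52 in CAST/EiJ females and 21.2 in males, and 18.2 in C57BL/6J females and 37.5 in males, and its log2 fold changes of -0.80, -1.65 and -0.96 ran beside those of Slc22a12.

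Slc22a13, named OAT10 and known in human and rat as a luminal exchanger of urate and nicotinate, was higher in females of 2 strains by far more than in the third. It had 158 to 190.5 CPM (median 175) in NZO/HlLtJ females and 57.7 to 75.0 (median 66.0) in NZO/HlLtJ males, and 146 to 193 (median 157) in C57BL/6J females and 56.3 to 101 (median 74.6) in C57BL/6J males. In CAST/EiJ females it had 132 to 162 CPM (median 137) and in CAST/EiJ males 101 to 155 (median 135). The sexes overlapped in CAST/EiJ and in neither of the others. Its value was 1.39 on the log2 scale (SE 0.07, edgeR adjusted p = 2.7e-19) in NZO/HlLtJ and 1.07 (SE 0.07, adjusted p = 8.84e-16) in C57BL/6J. In CAST/EiJ it was 0.19 (SE 0.07, adjusted p = 0.0377), and this call was lost, at 0.15 to 0.19 with adjusted p of 0.0523 to 0.124, when any of 8 libraries was left out: CAST/EiJ females on 44% fat replicate 3 or 4, females on 10% fat replicate 1 or 2, males on 44% fat replicate 2 or 3, or males on 10% fat replicate 2 or 3. The pseudogene Slc22a13b-ps, which holds 21.8% of the 100-base words of Slc22a13, had at most 1.28 CPM in any library.

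Slc22a7, or OAT2, an organic anion transporter of kidney and liver, ran in opposite directions in different strains. NZO/HlLtJ females had 169 to 237 CPM (median 200) and NZO/HlLtJ males 25.5 to 119.7 (median 101). CAST/EiJ females had 98.2 to 159.7 CPM (median 124) and CAST/EiJ males 222 to 351 (median 313). C57BL/6J females had 139.6 to 225 CPM (median 178) and C57BL/6J males 109 to 183 (median 163). The sexes overlapped in C57BL/6J, whereas in NZO/HlLtJ the female libraries and in CAST/EiJ the male libraries lay wholly above the other sex. On the log2 scale females stood at 1.36 over males (SE 0.18, edgeR adjusted p = 4.59e-08) in NZO/HlLtJ, -1.30 (SE 0.18, adjusted p = 2.28e-07) in CAST/EiJ, and 0.24 (SE 0.17, adjusted p = 0.278) in C57BL/6J.

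Slc22a26, 1 of a group of organic anion transporter genes that is expanded in rodents, was lower in CAST/EiJ females than in CAST/EiJ males by the widest margin of any strain. CAST/EiJ females had 6.45 to 30.3 CPM (median 14.7) and CAST/EiJ males 211 to 267 (median 219.8). NZO/HlLtJ females had 10.2 to 54.9 CPM (median 36.6) and NZO/HlLtJ males 26.6 to 64.4 (median 43.1), and C57BL/6J females had 18.0 to 79.5 CPM (median 44.8) and C57BL/6J males 21.5 to 55.4 (median 28.6). The sexes were far apart in CAST/EiJ and overlapped in the other two strains. For CAST/EiJ this gave a log2 fold change of -3.85 (SE 0.25, edgeR adjusted p = 4.45e-15). In NZO/HlLtJ it was -0.53 (SE 0.22, adjusted p = 0.0464), a call that was lost, at -0.55 to -0.44 with adjusted p of 0.053 to 0.114, without any of 12 of the 16 NZO/HlLtJ libraries; it held only without females on 44% fat replicate 1, males on 44% fat replicate 1 or 4, or males on 10% fat replicate 1. In C57BL/6J it was 0.46 (SE 0.22, adjusted p = 0.0915), and it passed the threshold without females on 44% fat replicate 3 (0.56, adjusted p = 0.0351) or without females on 10% fat replicate 2 (0.58, adjusted p = 0.0217).

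The largest differences between the sexes were those of Slc22a28 and Slc22a30, the neighbours of the same rodent group with nearly identical upstream windows. Slc22a28 had 26.1 to 47.2 CPM (median 38.5) in NZO/HlLtJ females and 193 to 293 (median 251) in NZO/HlLtJ males. It had 24.7 to 72.3 CPM (median 59.2) in CAST/EiJ females and 634 to 1079 (median 936) in CAST/EiJ males, and 20.1 to 34.9 CPM (median 27.8) in C57BL/6J females and 239 to 328 (median 259) in C57BL/6J males. Males were 6.62, 16.8 and 9.85 times as high as females in these strains, at log2 fold changes of -2.73 (SE 0.12), -4.07 (SE 0.13) and -3.30 (SE 0.13) with edgeR adjusted p of 5.57e-20, 4.02e-24 and 7.18e-22. Slc22a30 had 17.6 to 40.6 CPM (median 29.3) in NZO/HlLtJ females and 264 to 389 (median 339.6) in NZO/HlLtJ males. It had 18.1 to 25.8 CPM (median 22.2) in C57BL/6J females and 331 to 513 (median 371) in C57BL/6J males, and only 0.669 to 1.42 CPM (median 0.86) in CAST/EiJ females and 7.68 to 25.4 (median 14.6) in CAST/EiJ males. No library of either gene overlapped with the other sex of its strain. The log2 fold change of Slc22a30 was -3.54 (SE 0.13, adjusted p = 5.12e-22) in NZO/HlLtJ, -4.09 (SE 0.14, adjusted p = 2.59e-23) in C57BL/6J, and -4.02 (SE 0.18, adjusted p = 1.14e-19) in CAST/EiJ. In CAST/EiJ it was -2.50 with limma on the deposited variance-stabilized values.

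Slc22a29 lies between these genes and was higher in females, with 63.5 to 77.8 CPM in NZO/HlLtJ females and 1.2 to 2.78 in NZO/HlLtJ males, 5.05 to 8.09 in CAST/EiJ females and 0.137 to 0.465 in CAST/EiJ males, and 49.8 to 73.0 in C57BL/6J females and 1.38 to 3.58 in C57BL/6J males. Its log2 fold change was 5.15 (SE 0.11) in NZO/HlLtJ, 4.43 (SE 0.17) in CAST/EiJ and 4.75 (SE 0.11) in C57BL/6J, with edgeR adjusted p of 6.93e-32, 2.48e-23 and 1.26e-30. Of the 100-base words of Slc22a28, 36.9% occur in Slc22a30 transcripts, and 20.9% of those of Slc22a30 occur in Slc22a28, so the split of reads between them depends on how they were counted. Slc22a29 shares 1.31% of the words of Slc22a28 and 0.92% of those of Slc22a30. The sum of the 3 genes leaves out Slc22a27, whose transcripts hold 6.24% of the words of Slc22a29. That sum does not depend on how reads were divided among the 3 genes, but it would lose any reads left uncounted. Its median was 144 CPM in NZO/HlLtJ females and 586 in NZO/HlLtJ males, 65.8 in CAST/EiJ females and 952 in CAST/EiJ males, and 112 in C57BL/6J females and 629.7 in C57BL/6J males. Slc22a30 made up a median of 20.2% of that sum in NZO/HlLtJ females and 57.6% in males, 20.4% in C57BL/6J females and 58.9% in males, but 1.31% in CAST/EiJ females and 1.61% in males.

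**Figure D2:**
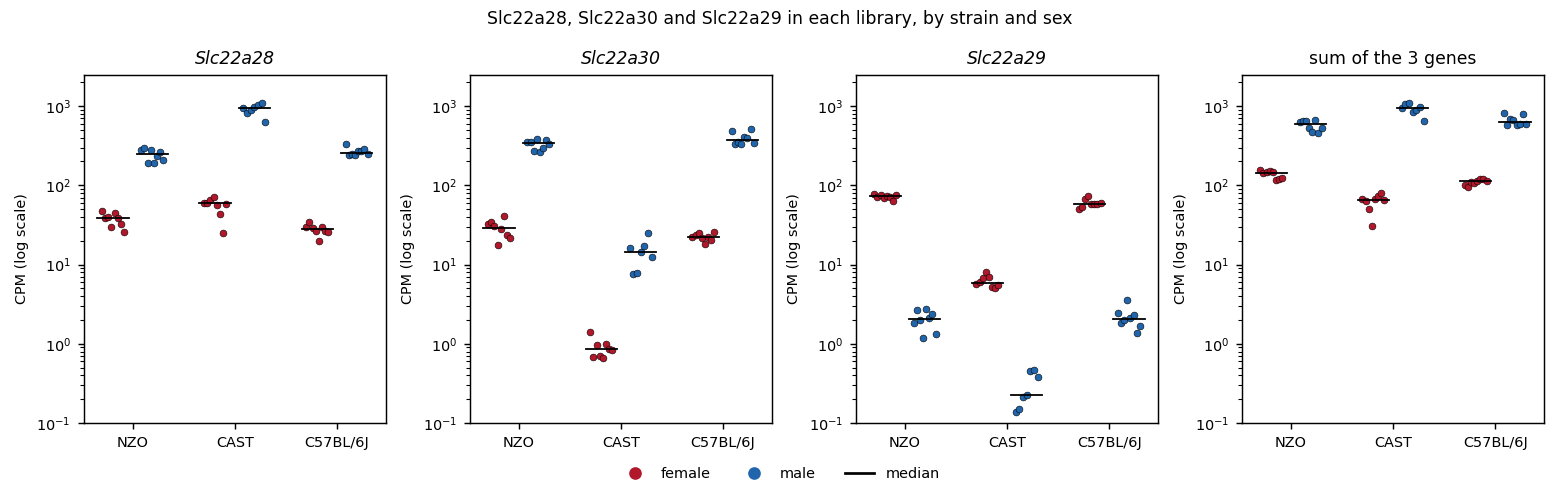
CPM (log axis) of Slc22a28, Slc22a30, Slc22a29 and their sum in each library, by strain, with females left of males; a point is a library and a line the median. The sum sits at medians of 65.8 to 144 CPM in females and 586 to 952 in males, Slc22a29 alone is higher in females, and CAST/EiJ stands low for Slc22a30 and Slc22a29 in both sexes.

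Within each run of ID numbers that held all the groups needed, the called members kept the sign of the pooled value. This was so for 21 of 21 values in the 3 runs of C57BL/6J, 27 of 27 in the 3 runs of CAST/EiJ and 9 of 9 in the 1 run usable for NZO/HlLtJ. For Slc22a28 the values were -2.77 in run 77 in NZO/HlLtJ, -3.87, -3.98 and -4.23 in CAST/EiJ and -3.12, -3.22 and -3.35 in C57BL/6J in runs 77, 81 and 89. Slc22a13 in CAST/EiJ ran from 0.04 to 0.36.

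**Figure D3:**
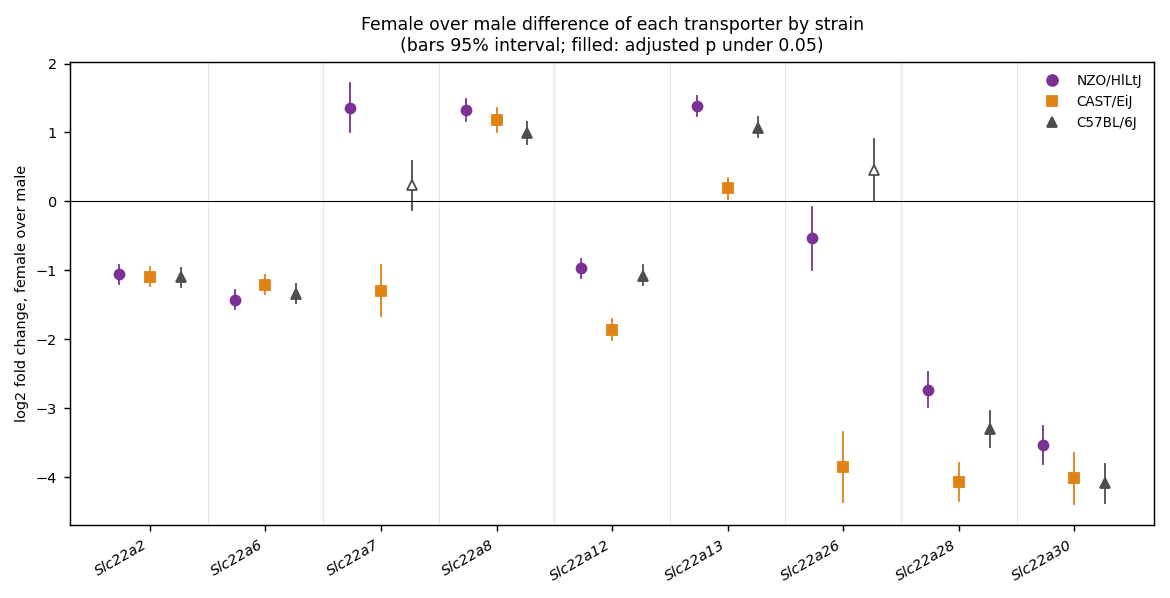
Log2 fold change of females over males for each of the 9 genes in NZO/HlLtJ, CAST/EiJ and C57BL/6J, with bars for the 95% interval and filled points where the adjusted p was under 0.05. Slc22a2 and Slc22a6 have like values in the 3 strains, from -1.06 to -1.10 and from -1.21 to -1.43, whereas Slc22a7 runs from -1.30 to 1.36 and Slc22a26 from -3.85 to 0.46.

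Markers of other nephron segments also differed between the sexes. All 6 podocyte markers were higher in females of each strain, and their sum was at 524 to 568 CPM in NZO/HlLtJ females and 324 to 403 in males, 531 to 581 in CAST/EiJ females and 354 to 436 in males, and 498 to 548 in C57BL/6J females and 354 to 426 in males. At least 5 of 6 markers of the thick ascending limb, of the distal convoluted tubule and of intercalated cells were higher in females of each strain too. Over all genes, 25.4% were called higher in females of NZO/HlLtJ, 23.7% in CAST/EiJ and 25.1% in C57BL/6J. Of 6 adipocyte markers 5 were higher in NZO/HlLtJ females (sums of 1.33 to 9.38 CPM, against 0.128 to 4.05 in males) and 0 in the other strains by edgeR. The summed level of 10 markers of the whole proximal tubule had medians of 25706 CPM in NZO/HlLtJ females and 24025 in males, 22246 in CAST/EiJ females and 22717 in males, and 26145 in C57BL/6J females and 26995 in males, and its range overlapped between the sexes in each strain. The sum of 7 markers of its S3 segment was lower in females, at medians of 6079.7 CPM against 8169 in NZO/HlLtJ males, 4788 against 7974 in CAST/EiJ males and 5399 against 7820.1 in C57BL/6J males. Of these 7, 3 were higher and 4 lower in females of each strain. The S3 list holds Slc7a13, which is also listed below among kidney genes known to differ between the sexes. The part of all these markers in the differences of the Slc22 genes was not tested.

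The difference between the sexes itself differed by strain for 5 of the members when CAST/EiJ was set against C57BL/6J, where 13.2% of all genes were called, 5.94% higher and 7.3% lower. All 5 were lower in CAST/EiJ. The female over male log2 fold change differed by -4.31 for Slc22a26 (SE 0.33, edgeR adjusted p = 3.22e-12), with values within runs of -4.00, -3.62 and -5.41. For Slc22a7 the difference was -1.53 (SE 0.25, adjusted p = 2.64e-05), for Slc22a13 -0.89 (SE 0.10, adjusted p = 1.75e-08), for Slc22a12 -0.79 (SE 0.10, adjusted p = 8.87e-08) and for Slc22a28 -0.77 (SE 0.17, adjusted p = 0.00131). Slc22a2 differed by 0.01 (95% interval -0.19 to 0.21) and Slc22a6 by 0.13 (-0.07 to 0.33), and neither was called. These 5 calls held without any single library and under each other setting tried. With limma on the deposited variance-stabilized values 6 members were called. The female over male value of Slc22a30 ran from -4.15 to -2.5 over the alternatives in CAST/EiJ and from -4.14 to -3.94 in C57BL/6J.

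Set against CAST/EiJ, NZO/HlLtJ also differed for 5 members, where 14.3% of all genes were called, 7.81% higher and 6.53% lower, and the CAST/EiJ libraries are shared with the comparison before. The values were 3.32 for Slc22a26 (SE 0.33, edgeR adjusted p = 1.21e-09), 2.66 for Slc22a7 (SE 0.25, adjusted p = 4.76e-10), 1.34 for Slc22a28 (SE 0.17, adjusted p = 1.64e-07), 1.20 for Slc22a13 (SE 0.10, adjusted p = 8.14e-12) and 0.89 for Slc22a12 (SE 0.10, adjusted p = 3.67e-09). Each kept its sign in run 77, from 0.49 for Slc22a12 to 3.34 for Slc22a26. Slc22a30 differed by 0.48 (SE 0.23, adjusted p = 0.19), and its direction turned to -0.93 (adjusted p = 1.69e-05) with limma on the deposited variance-stabilized values, so no direction is given for it. Slc22a6 differed by -0.22 (adjusted p = 0.136), and by -0.27 (adjusted p = 0.0271) without CAST/EiJ females on 44% fat replicate 1.

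Between NZO/HlLtJ and C57BL/6J only 2 members differed in this way, where 4.95% of all genes were called, 2.6% higher and 2.35% lower. Slc22a7 had a female over male value higher by 1.12 in NZO/HlLtJ (SE 0.24, edgeR adjusted p = 0.00308; 1.36 within run 77). Slc22a28 was higher by 0.57 (SE 0.17, adjusted p = 0.0362; 0.36 within run 77), with a value of 0.53 (adjusted p = 0.0795) when the runs had no term. That call was lost, at 0.52 to 0.57 with adjusted p of 0.0501 to 0.0762, without any of 15 libraries: NZO/HlLtJ females on 44% fat replicate 1 or 3, females on 10% fat replicate 1 or 3, males on 44% fat replicate 1 or 3 or males on 10% fat replicate 4, and C57BL/6J females on 44% fat replicate 2, 3 or 4, females on 10% fat replicate 2, males on 44% fat replicate 3 or males on 10% fat replicate 1, 3 or 4. Slc22a8 (0.34), Slc22a13 (0.31), Slc22a26 (-0.99) and Slc22a30 (0.55) had adjusted p of 0.0637 to 0.0693 and were not called, though each passed the threshold under some other setting or without some library.

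The strains differed most in Slc22a30, which was lower in CAST/EiJ than in the other strains in both sexes. CAST/EiJ females reached at most 1.42 CPM and CAST/EiJ males at most 25.4 CPM, whereas females of the other strains had at least 17.6 CPM and males at least 264 CPM. CAST/EiJ over C57BL/6J gave -4.66 in females (SE 0.18, edgeR adjusted p = 1.46e-22, log2 scale) and -4.74 in males (SE 0.16, adjusted p = 2.29e-24). That of NZO/HlLtJ over CAST/EiJ was 4.97 in females (SE 0.18, adjusted p = 2.39e-23) and 4.49 in males (SE 0.16, adjusted p = 9.25e-24). NZO/HlLtJ over C57BL/6J gave 0.31 in females (SE 0.13, adjusted p = 0.0571) and -0.24 in males (SE 0.12, adjusted p = 0.112). The value in females passed the threshold in 7 of 22 alternatives and ran from 0.22 to 0.36 over all of them. Within runs the value of CAST/EiJ over C57BL/6J lay between -4.83 and -4.51 in females and between -5.17 and -4.51 in males. With limma on the deposited variance-stabilized values the female values were smaller in size, -3.09 for CAST/EiJ over C57BL/6J and 3.36 for NZO/HlLtJ over CAST/EiJ, and the male values were -4.53 and 4.29; all 4 stayed called. Slc22a30 shares words with Slc22a28, and neither the counting method nor the use of strain-specific sequences is given in the sources used here, so their part in the CAST/EiJ levels was not tested.

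CAST/EiJ males stood above the males of the other strains for Slc22a26, Slc22a28 and Slc22a7. Over C57BL/6J males the log2 fold change was 2.83 for Slc22a26 (SE 0.24, edgeR adjusted p = 1.54e-12), 1.75 for Slc22a28 (SE 0.12, adjusted p = 6.78e-15) and 1.04 for Slc22a7 (SE 0.18, adjusted p = 7.32e-06), with no overlap between the groups. NZO/HlLtJ males over CAST/EiJ males gave -2.44 for Slc22a26 (SE 0.23, adjusted p = 4.84e-11), -1.94 for Slc22a28 (SE 0.12, adjusted p = 3.78e-16) and -2.03 for Slc22a7 (SE 0.19, adjusted p = 1.22e-11), again with no overlap. Slc22a28 shares words with Slc22a30, and their sum with Slc22a29 does not depend on the split of reads between them, though it would lose reads left uncounted. That sum was 647 to 1105 CPM in CAST/EiJ males (median 952). It was 573 to 818 in C57BL/6J males (median 629.7) and 459.9 to 672 in NZO/HlLtJ males (median 586), and these ranges overlapped. In females Slc22a26 ran the other way: CAST/EiJ over C57BL/6J gave -1.48 (SE 0.23, adjusted p = 1e-06) and NZO/HlLtJ over CAST/EiJ 0.88 (SE 0.23, adjusted p = 0.00135), with overlapping libraries in both.

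Slc22a12 was lower in CAST/EiJ than in C57BL/6J, by 1.44 on the log2 scale in females (SE 0.07, edgeR adjusted p = 2.21e-21) and by 0.66 in males (SE 0.07, adjusted p = 1.96e-10), and was also lower in NZO/HlLtJ than in C57BL/6J, by 0.48 in females (SE 0.07, adjusted p = 3.88e-07) and 0.58 in males (SE 0.07, adjusted p = 5.3e-09). None of these pairs of groups overlapped. Slc22a6 was higher in CAST/EiJ than in C57BL/6J, at 0.62 in females (SE 0.07, adjusted p = 1.46e-10) and 0.49 in males (SE 0.07, adjusted p = 1.01e-07), and did not overlap. Slc22a2 had log2 values of 0.22 in females and 0.21 in males for CAST/EiJ over C57BL/6J and of -0.23 and -0.27 for NZO/HlLtJ over C57BL/6J, all called and all with overlapping libraries.

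Over all members, CAST/EiJ against C57BL/6J had 9 of 9 called in females, 4 higher and 5 lower, where 61.9% of all genes were called, 30.8% higher and 31.2% lower. In males it had 8 of 9 called, 6 higher and 2 lower, where 60.9% of all genes were, 31% higher and 29.9% lower. NZO/HlLtJ against CAST/EiJ had 9 of 9 called in females, 5 higher and 4 lower, against 60.4% of all genes, 30.4% higher and 30% lower. In males it had 8 of 9 called, 1 higher and 7 lower, against 60.9% of all genes, 29.9% higher and 31% lower. NZO/HlLtJ against C57BL/6J had 4 of 9 called in females, 1 higher and 3 lower, against 37.7% of all genes, 18.8% higher and 18.8% lower, and 5 of 9 in males, all lower, against 42.6% of all genes, 21.6% higher and 21% lower. Counted in either direction, the shares for NZO/HlLtJ against C57BL/6J are near those over all genes. By direction, 5 of 9 were lower in males, against 21% of all genes. The 3 comparisons share their strains pairwise, so their values are not independent. Markers of the whole proximal tubule also differed: in females of CAST/EiJ over C57BL/6J 1 of 10 was higher and 6 lower (sums of 19733 to 25739.5 CPM, against 25403 to 30041), and in males 1 was higher and 3 lower (22139.7 to 23573, against 25937 to 27862). Their part in the strain differences was not tested.

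Of the called strain values, 3 were lost without single libraries. Slc22a13 in CAST/EiJ females over C57BL/6J females was -0.17 (edgeR adjusted p = 0.042) and was lost, at -0.17 to -0.12, when CAST/EiJ and C57BL/6J alone were fitted or without any of 9 of the 16 libraries: CAST/EiJ on 44% fat replicate 1 or 2 or on 10% fat replicate 1, 3 or 4, and C57BL/6J on 44% fat replicate 1 or 4 or on 10% fat replicate 3 or 4. Slc22a13 in NZO/HlLtJ males over C57BL/6J males was -0.19 (adjusted p = 0.0373) and was lost without any of 9 libraries, NZO/HlLtJ on 44% fat replicate 1, 3 or 4 or on 10% fat replicate 2 or 3, and C57BL/6J on 44% fat replicate 1, 2 or 4 or on 10% fat replicate 2, where it was -0.11 in the last case. Slc22a26 in NZO/HlLtJ females over C57BL/6J females was -0.59 (SE 0.23, adjusted p = 0.0364) and was lost, at -0.59 to -0.42, without any of 9 libraries, NZO/HlLtJ on 44% fat replicate 2 or 4 or on 10% fat replicate 1 or 4, and C57BL/6J on 44% fat replicate 2 or 4 or on 10% fat replicate 1, 3 or 4; it was also lost with limma (-0.48, adjusted p = 0.052) and when these strains alone were fitted (-0.61, adjusted p = 0.0501).

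**Figure D4:**
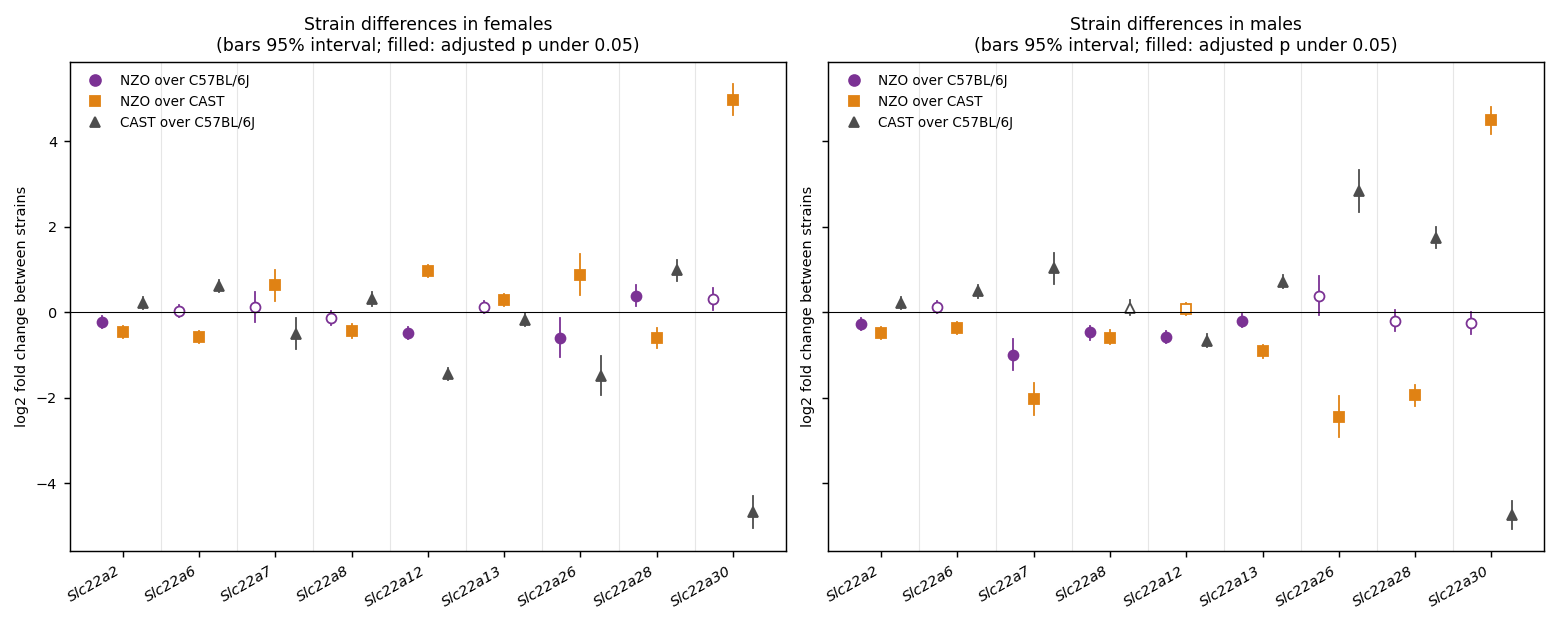
Log2 fold change between strains for each of the 9 genes, in females (left) and males (right), with bars for the 95% interval and filled points where the adjusted p was under 0.05. Slc22a30 has the largest values in both panels, 4.97 and 4.49 for NZO/HlLtJ over CAST/EiJ and -4.66 and -4.74 for CAST/EiJ over C57BL/6J, and Slc22a26 has opposite signs in the panels.

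Diet moved few of these genes. In NZO/HlLtJ, averaged over the sexes, 2 of 9 members were called, both lower on 44% fat, where 3.62% of all genes were called, 1.98% higher and 1.64% lower. In CAST/EiJ 1 of 9 was called, higher on 44% fat, where 0.99% of all genes were called, 0.543% higher and 0.447% lower. In C57BL/6J 0 of 9 were called by edgeR, where 0.0266% of all genes were, 0.0213% higher and 0.00532% lower, with 1 member at an unadjusted p under 0.05 and 0 called by DESeq2's Wald test and by limma. Within single groups of strain and sex, 2 of 9 were called in CAST/EiJ males, 1 higher and 1 lower, against 0.58% of all genes, 0.277% higher and 0.303% lower. In NZO/HlLtJ females (0.149% of all genes), NZO/HlLtJ males (3.51%), CAST/EiJ females (0.144%), C57BL/6J females (0%) and C57BL/6J males (0.00532%) edgeR called 0 of 9. At an unadjusted p under 0.05 these groups had 2, 2, 3, 1 and 0 members, and both DESeq2's Wald test and limma called 1 in NZO/HlLtJ females, 1 in NZO/HlLtJ males and 0 in the others.

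Slc22a26 was lower on 44% fat in NZO/HlLtJ mice of both sexes. NZO/HlLtJ females on 44% fat had 29.1, 12.6, 18.6 and 10.2 CPM, against 44.1, 47.2, 54.9 and 51.3 CPM in those on 10% fat. NZO/HlLtJ males on 44% fat had 26.6, 38.6, 37.8 and 30.7 CPM, against 47.5, 54.9, 64.4 and 49.7 CPM in those on 10% fat. Each library on 44% fat lay below each on 10% fat, within either sex and over both. The log2 fold change over both sexes was -1.09 (SE 0.22, edgeR adjusted p = 0.00426), and -0.96 within run 77, the only run with all 4 groups. The call held under each setting and without any single library, at -1.26 to -1.0. In females alone it was -1.40 (SE 0.33, adjusted p = 0.0741), past the threshold without the term for runs (-1.48, adjusted p = 0.0271), with DESeq2's Wald test (-1.39, adjusted p = 0.0165), with limma (-1.37, adjusted p = 0.0257) and without females on 44% fat replicate 1 (-1.77, adjusted p = 0.0154). In males alone it was -0.79 (SE 0.33, adjusted p = 0.183). In C57BL/6J the value was -0.77 (95% interval -1.23 to -0.32, adjusted p = 0.413), and it was -1.15, -0.98 and -0.40 within runs 77, 81 and 89.

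Slc22a7 was also lower on 44% fat in NZO/HlLtJ, and 1 library set the size of that value. NZO/HlLtJ males on 44% fat had 33.7, 119.7, 25.5 and 55.3 CPM, against 114, 102, 109.5 and 100.2 CPM in those on 10% fat. NZO/HlLtJ females on 44% fat had 188, 191, 169 and 174 CPM, against 209, 216, 232 and 237 CPM in those on 10% fat. Replicate 2 of the males on 44% fat was the highest male library and the other three on that diet were the lowest, while the female groups did not overlap. Over both sexes the log2 fold change was -0.60 (SE 0.17, edgeR adjusted p = 0.0452; -0.46 within run 77). The call held in 1 of the 16 fits that left out a library, the one without males on 44% fat replicate 2 (-0.89, adjusted p = 4.59e-05), and was lost in the other 15, at -0.63 to -0.47 with adjusted p of 0.0503 to 0.124. It was lost too when NZO/HlLtJ alone was fitted (-0.62, adjusted p = 0.282) and with no filter on low counts (-0.60, adjusted p = 0.0541). In males alone it was -0.86 (SE 0.25, adjusted p = 0.0514), and -1.49 (adjusted p = 3.67e-05) without that replicate; the 3 other settings under which it passed gave -0.86 without the term for runs (adjusted p = 0.0373), -0.86 with DESeq2's Wald test (adjusted p = 0.0236) and -1.05 with limma (adjusted p = 0.00582).

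Markers of tubule segments moved beside these NZO/HlLtJ values. Females on 44% fat had a summed S3 marker level of 5348 to 6135 CPM (median 5888), those on 10% fat 6024 to 7024 (median 6566). Males on 44% fat had 6547 to 8205 CPM (median 6732), those on 10% fat a median of 8530 and at most 9122, with their lowest library below the highest on 44% fat. Of the 7 S3 markers 0 were called higher and 2 lower, and of 6 intercalated cell markers 3 were lower, whereas of 10 markers of the whole proximal tubule 2 were higher and 0 lower. In the other segment lists Slc2a2 of S1 and S2 (0.50, edgeR adjusted p = 0.000327) and Calb1 of the distal convoluted tubule (0.57, adjusted p = 0.00056) were higher. Umod of the thick ascending limb was lower (-0.21, edgeR adjusted p = 0.013). Of all genes tested, 3.62% were called for diet in NZO/HlLtJ, 1.98% higher and 1.64% lower. The part of all these markers in the values of Slc22a26 and Slc22a7 was not tested. Slc22a28 and Slc22a30 in NZO/HlLtJ had log2 values of -0.31 (adjusted p = 0.146) and -0.37 (adjusted p = 0.0961) on 44% over 10% fat. Slc22a30 passed without females on 44% fat replicate 1 (-0.46, adjusted p = 0.0296) or without males on 44% fat replicate 2 (-0.43, adjusted p = 0.0442).

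Slc22a8 was higher on 44% fat in CAST/EiJ males. CAST/EiJ males on 44% fat had 414, 443, 331 and 565 CPM, against 244, 229.6 and 209.9 CPM in those on 10% fat. CAST/EiJ females on 44% fat had 615, 705, 836 and 782 CPM, against 655, 675, 810.3 and 713 CPM in those on 10% fat. The male groups did not overlap, and the female groups did. In males the log2 fold change was 0.93 (SE 0.12, edgeR adjusted p = 3.31e-05), with 0.76, 0.74 and 1.43 within runs 77, 81 and 89. In females it was 0.05 (SE 0.11, adjusted p = 0.946). Over both sexes it was 0.49 (SE 0.08, adjusted p = 0.00138), and this value and that in males were called under each setting and without any single library, at 0.41 to 0.55 and 0.79 to 1.05. The males on 44% fat still lay below each CAST/EiJ female library. The summed markers of S1 and S2 were at 1753 to 1996 CPM in CAST/EiJ males on 44% fat and 1948 to 2436 on 10% fat, and those of the whole proximal tubule at 22679 to 23387 and 22139.7 to 23573 CPM. In the same males the sums on 44% fat did not overlap with those on 10% fat for 4 other lists. They were 156 to 167 CPM on 44% fat and 124 to 145 on 10% fat for macrophages, 10.9 to 36.4 and 6.54 to 8.80 for B and plasma cells, 1116 to 1296 and 1017 to 1112 for the distal convoluted tubule, and 4.0 to 4.67 and 5.31 to 13.0 for hepatocytes. Within these 4 lists edgeR called 1 marker, a hepatocyte one, which was lower, where 0.58% of all genes were called. The part of all these markers in the value of Slc22a8 was not tested.

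The response of Slc22a8 differed between the sexes of CAST/EiJ, by -0.88 in females minus males (SE 0.16, edgeR adjusted p = 0.0259), where 0.0479% of all genes were called. Within runs 77, 81 and 89 it was -0.85, -0.55 and -1.39. The call was lost, at -0.88 to -0.78 with adjusted p of 0.0543 to 0.139, without CAST/EiJ males on 44% fat replicate 1 or 2, females on 44% fat replicate 2, males on 10% fat replicate 2 or 3, or females on 10% fat replicate 3, and when CAST/EiJ alone was fitted (-0.85, adjusted p = 0.287). In NZO/HlLtJ and C57BL/6J 0 of 9 members differed in this way by edgeR, where 0.00532% and 0% of all genes were called; 0 members had an unadjusted p under 0.05, and DESeq2's Wald test and limma called 0.

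Slc22a30 in CAST/EiJ males was the other member called for diet there. On 44% fat it had 7.68, 7.73, 14.6 and 12.6 CPM, against 16.2, 17.0 and 25.4 CPM on 10% fat, with no overlap. Its log2 fold change was -0.84 (SE 0.20, edgeR adjusted p = 0.0441), and -1.07, -0.68 and -1.01 within runs 77, 81 and 89. It was lost when CAST/EiJ alone was fitted (-0.85, adjusted p = 0.174), with no filter on low counts (-0.83, adjusted p = 0.0552), and without males on 44% fat replicate 1, 2 or 4 or males on 10% fat replicate 2 or 3, at -0.90 to -0.64 with adjusted p of 0.0581 to 0.267.

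**Figure D5:**
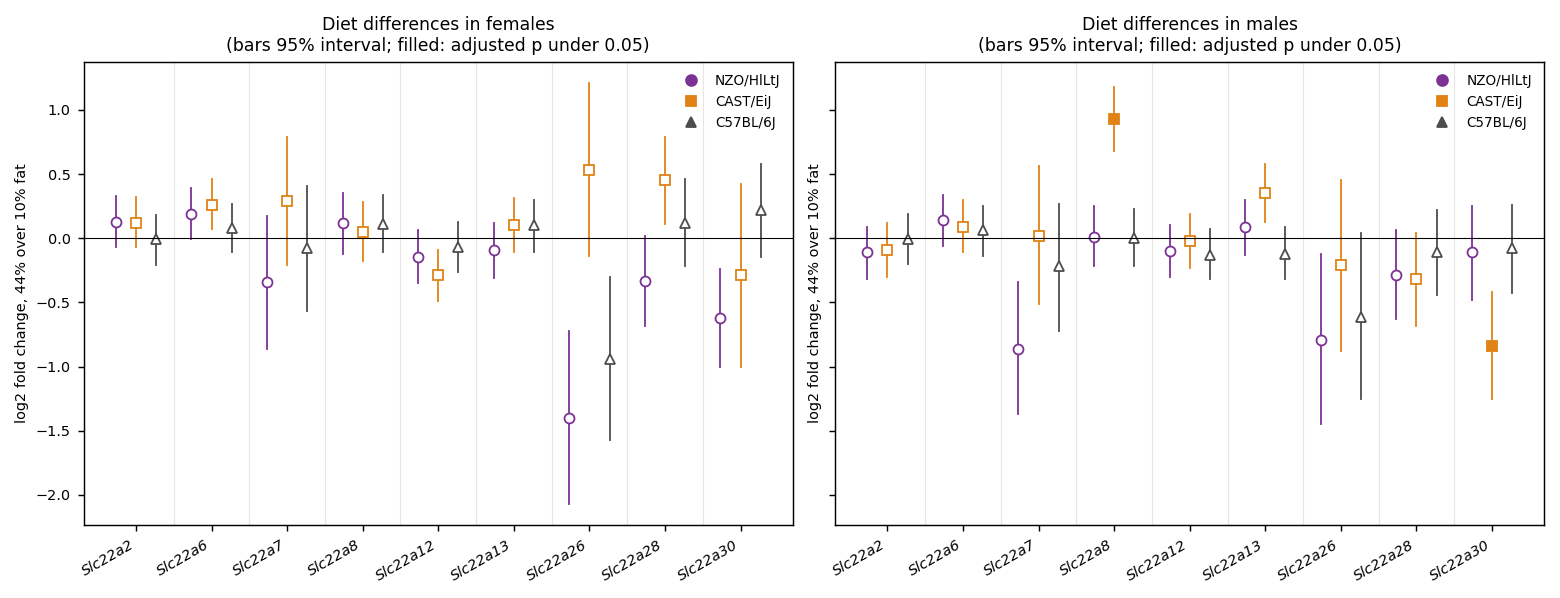
Log2 fold change of 44% over 10% fat for each of the 9 genes in NZO/HlLtJ, CAST/EiJ and C57BL/6J, in females (left) and males (right), with bars for the 95% interval and filled points where the adjusted p was under 0.05. The filled points are Slc22a8 (0.93) and Slc22a30 (-0.84) in CAST/EiJ males, and Slc22a26 lies below 0 in NZO/HlLtJ and C57BL/6J of both sexes.

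Set against each other, NZO/HlLtJ minus CAST/EiJ differed in diet response for 2 of 9 members, where 1.28% of all genes were called, 0.735% higher and 0.548% lower, and these fits reuse the libraries above. Slc22a26 differed by -1.25 (SE 0.33, edgeR adjusted p = 0.045; -0.85 within run 77) and Slc22a8 by -0.42 (SE 0.11, adjusted p = 0.0479; -0.29 within run 77). Of the 31 fits without a library of these strains, 25 lost the call of Slc22a26 and 24 that of Slc22a8, with values of -1.32 to -1.13 and -0.44 to -0.35 in those fits and adjusted p up to 0.0879 and 0.0963. The exceptions, where Slc22a26 stayed called, were the fits without NZO/HlLtJ females on 44% fat replicate 1, NZO/HlLtJ males on 44% fat replicate 2 or 3, CAST/EiJ females on 44% fat replicate 1, CAST/EiJ females on 10% fat replicate 1 and CAST/EiJ males on 44% fat replicate 3. Those for Slc22a8 were the fits without NZO/HlLtJ females on 44% fat replicate 2, NZO/HlLtJ males on 44% fat replicate 3, NZO/HlLtJ males on 10% fat replicate 1, CAST/EiJ females on 44% fat replicate 1, CAST/EiJ females on 10% fat replicate 3, CAST/EiJ males on 44% fat replicate 3 and CAST/EiJ males on 10% fat replicate 1. With the other settings counted too, 27 of 37 alternatives lost the call of Slc22a26 and 28 of 37 that of Slc22a8. Between CAST/EiJ and C57BL/6J (0.0532% of all genes) and between NZO/HlLtJ and C57BL/6J (0.0373%) edgeR called 0 members, with 4 and 1 at an unadjusted p under 0.05 and 0 called by DESeq2's Wald test and by limma. Slc22a8 in CAST/EiJ minus C57BL/6J was 0.43 (adjusted p = 0.183), and 0.49 (adjusted p = 0.039) without CAST/EiJ males on 44% fat replicate 3.

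The genes whose levels ran most like each member are given by the Pearson correlation of log2 CPM over the 12 group means, among 11878 genes, as a description with no test. The 12 means share strain, sex and diet groups. Slc22a2 ran like Hsd17b2 and Fmo5 (r = 0.99 each), Slc22a6 like Rdh10 (0.988), Cyp2e1 (0.984) and Atg5 (0.983), and Slc22a28 like Cyp2b10 (0.99), Glyctk (0.987) and Slc17a1 (0.986). Slc22a30 ran like Dnajc22 (0.991), Sil1 (0.989) and Tulp3 (0.985), Slc22a12 like Nrxn2 (0.991), with which it shares sequence, Rad51d and Med28 (0.964 each). Slc22a8 ran like Hpcal1 (0.973), Scnn1a (0.972) and Sdpr (0.969), and Slc22a13 like Acnat1 (0.966), Laptm4b (0.963) and Ston2 (0.961). The likeness was weaker for Slc22a26, with Fat1 (0.955), Scmh1 (0.91) and Timp3 (0.889), and for Slc22a7, with Notch2 (0.879) and Fga (0.866). Among the members, Slc22a2, Slc22a6 and Slc22a28 ran together (r = 0.96 to 0.97), as did Slc22a12 with Slc22a30 (0.88) and Slc22a8 with Slc22a13 (0.85), and Slc22a8 ran against Slc22a30 (-0.80). Slc22a28 and Slc22a30 had r = 0.36.

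Of 16 other Slc22 genes listed, 14 were in the table and passed the filter. Between the sexes 8 were higher and 3 lower in NZO/HlLtJ females (median log2 fold change 0.49), 7 higher and 3 lower in CAST/EiJ (0.24), and 6 higher and 2 lower in C57BL/6J (0.26), where the median over all genes was 0.04, 0.05 and 0.05. The share of all genes called was 49.9%, 47.6% and 47.9%. Slc22a27, a neighbour of Slc22a26, was higher in females by 3.91 in NZO/HlLtJ, 4.69 in CAST/EiJ and 4.10 in C57BL/6J on the log2 scale. Slc22a22, a prostaglandin transporter of mouse kidney, was lower, at -0.52 in NZO/HlLtJ (SE 0.11, edgeR adjusted p = 0.000148), -4.48 in CAST/EiJ (SE 0.15, adjusted p = 1.85e-23) and -1.77 in C57BL/6J (SE 0.12, adjusted p = 2.35e-15). Slc22a19, or Oat5, was higher in females by 0.92 in NZO/HlLtJ and 1.26 in C57BL/6J, and lower in CAST/EiJ females, at -0.43 (SE 0.10, adjusted p = 0.000471). For diet, 1 was called in CAST/EiJ, Slc22a22 at 0.73 over both sexes (edgeR adjusted p = 0.0195), with 1.47 in females (adjusted p = 0.0171) and -0.01 in males (adjusted p = 0.995). The difference between these sexes was 1.49 (SE 0.33, adjusted p = 0.0942) and was not called. In NZO/HlLtJ Slc22a19 (-0.47, adjusted p = 0.0021) and Slc22a17 (-0.23, adjusted p = 0.0471) were lower and Slc22a23 (0.20, adjusted p = 0.0479) was higher, and in C57BL/6J none of the 14 was called. Over both sexes the share of all genes called for diet was 3.62% in NZO/HlLtJ, 0.99% in CAST/EiJ and 0.0266% in C57BL/6J.

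The 22 partner transporters of organic ions and urate were mixed between the sexes. In NZO/HlLtJ 6 were higher and 10 lower in females, in CAST/EiJ 5 and 10, and in C57BL/6J 8 and 10. Of all genes tested, 49.9%, 47.6% and 47.9% were called between the sexes in the same order of strains. Slco1a1, an organic anion transporting polypeptide, had mean levels of 0.0462 CPM in NZO/HlLtJ females and 573 in males, 0.148 in CAST/EiJ females and 456 in males, and 0.104 in C57BL/6J females and 779 in males. Slc47a1, the luminal cation exporter MATE1 that works in series with Slc22a2, was lower in females by 0.87, 0.84 and 0.83 in the same order of strains. Slc5a8, a sodium-coupled monocarboxylate transporter that is also an S3 marker, gave -1.53, -1.81 and -1.51. On 44% over 10% fat, Slc13a3, the basolateral dicarboxylate carrier whose substrates drive organic anion exchange, was higher in NZO/HlLtJ (0.26, SE 0.06, edgeR adjusted p = 0.00888) and CAST/EiJ (0.29, SE 0.06, adjusted p = 0.0142). Slco4c1 was higher in NZO/HlLtJ (0.49, adjusted p = 0.02), and in CAST/EiJ Abcb1b, a P-glycoprotein, was higher (0.82, adjusted p = 0.0192) and Slc5a8 lower (-0.33, adjusted p = 0.0154).

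Among 16 regulators named for these genes or for sex differences of the tubule, 4 were higher and 9 lower in NZO/HlLtJ females, 4 and 7 in CAST/EiJ, and 5 and 5 in C57BL/6J. For this list and the next, the shares of all genes called between the sexes were 49.9%, 47.6% and 47.9% in these strains. Prlr, the prolactin receptor, was higher in females by 5.53 in NZO/HlLtJ (SE 0.30), 2.86 in CAST/EiJ (SE 0.29) and 5.03 in C57BL/6J (SE 0.29). Nr1i2, the xenobiotic receptor PXR, was higher by 1.21, 1.08 and 1.29 (SE 0.09 each). Esr1 was lower by 1.29 in NZO/HlLtJ and 1.51 in C57BL/6J. Its female over male value differed in CAST/EiJ, by 1.16 for CAST/EiJ minus C57BL/6J (SE 0.12, edgeR adjusted p = 2.3e-09). For NZO/HlLtJ minus CAST/EiJ the difference was -0.94 (SE 0.12, edgeR adjusted p = 1.42e-07). For diet 1 of the 16 was called, Ghr, the growth hormone receptor, at -0.18 in NZO/HlLtJ (SE 0.05, edgeR adjusted p = 0.0426). For this list and the next, the shares of all genes called for diet were 3.62% in NZO/HlLtJ, 0.99% in CAST/EiJ and 0.0266% in C57BL/6J. Of 13 kidney genes known to differ between the sexes, a list that shares Prlr and Slco1a1 with those above, 3 were higher and 9 lower in NZO/HlLtJ and CAST/EiJ females and 4 and 9 in C57BL/6J. On 44% over 10% fat 2 of the 13 were called in NZO/HlLtJ, Kap (-0.39, edgeR adjusted p = 0.000977) and Cyp4a14 (1.96, adjusted p = 0.00286), and 0 in the other strains by edgeR. Slc7a13, a cystine transporter of the S3 segment, had mean levels of 2.27 CPM in NZO/HlLtJ females and 997 in males, 41.6 in CAST/EiJ females and 1003 in males, and 1.45 in C57BL/6J females and 981 in males.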

How the data were processed

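Polyadenylated kidney RNA was sequenced as 100-base paired-end reads with a target of 30 M read pairs, per the labels' protocols. The authors deposited expected counts per gene, 25.9% of them not whole, and a variance-stabilized matrix on a log2 scale. The submitters' processing notes name GRCm38 and DESeq2. The aligner, the counter and whether strain-specific sequences were used are not given in the sources used here. GRCm38 is a C57BL/6J assembly.

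Expected counts were rounded, filtered with edgeR's filterByExpr over the 12 groups (3688 genes left out, 18786 tested), scaled by TMM and fitted with edgeR's robust quasi-likelihood test (edgeR 4.0.16, limma 3.58.1, R 4.3.3) as 12 group means plus a term for the run of ID numbers, with 33 residual degrees of freedom. P-values were adjusted by Benjamini-Hochberg over all genes tested, at 0.05. The scripts were tested on simulated data. Alternatives were DESeq2 size factors, DESeq2's Wald test (DESeq2 1.42.0), limma on the deposited log2 matrix, no filter, no run term, the compared strains alone, and each library left out. Replicate numbers only name libraries. No columns were identical, and the highest correlation within a group was 0.9884.

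The members, gene lists and marker lists were chosen with earlier results of these data known. All 9 members are named. From each list up to 4 genes, and from each marker list up to 2, with the smallest adjusted p in a comparison could be named, beside up to 3 genes most like each member, of which some are not reported here. Slc22a29 and Slc22a27 were added for their position, and Nrxn2 and Slc22a13b-ps for shared sequence. Promoter windows come from RefSeq on GRCm38.p6, and alignments were made with Biopython 1.88. Gene positions are those the authors deposited. CPM per kb uses the union of a gene's exons, and shared 100-base words its transcripts, from the GENCODE annotation of GRCm38. A word was taken as shared if it or its reverse complement occurred in the other gene's transcripts. Tables used pandas 2.3.3 and figures matplotlib 3.10.9. Slc22a16 and Slc22a20 were not analysed here.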

Additional observations from a re-analysis of the deposited data

Results flagged for a closer look

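In 5 of 99 sets of 4 libraries of a member, 1 library stood apart by a gap, as a share of the set's range, past Dixon's limit at 95%, which chance passes in about 1 in 20 sets. Slc22a6 was highest in replicate 3 of NZO/HlLtJ females on 44% fat, at 429.7 CPM, with the others at 345 to 359 (0.833 of the range). Slc22a7 was lowest in replicate 4 of CAST/EiJ males on 44% fat, at 222 CPM, with the others at 330.3 to 351 (0.841). Replicate 2 of C57BL/6J males on 10% fat was highest for Slc22a12, at 1353 CPM against 1303 to 1308 (0.909), and for Slc22a13, at 101 CPM against 70.0 to 73.6 (0.887). Slc22a30 was highest in replicate 3 of C57BL/6J males on 44% fat, at 513 CPM, with the others at 332 to 349 (0.905).

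The female over male difference passed edgeR's test for a difference between strains in 12 cases, given as log2 values. For CAST/EiJ minus C57BL/6J these were -1.53 for Slc22a7, -0.79 for Slc22a12, -0.89 for Slc22a13, -4.31 for Slc22a26 and -0.77 for Slc22a28. For NZO/HlLtJ minus C57BL/6J they were 1.12 for Slc22a7 and 0.57 for Slc22a28. For NZO/HlLtJ minus CAST/EiJ they were 2.66 for Slc22a7, 0.89 for Slc22a12, 1.20 for Slc22a13, 3.32 for Slc22a26 and 1.34 for Slc22a28.

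The difference between the diets passed the same test in 3 cases. NZO/HlLtJ minus CAST/EiJ gave -0.42 for Slc22a8 and -1.25 for Slc22a26, and CAST/EiJ females minus males gave -0.88 for Slc22a8. All 3 were lost without some single libraries and also under some other setting.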

How the results depend on the processing

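Of 88 called values of a member in a comparison, 77 stayed called in the same direction in each alternative computed, 11 lost the call in at least 1, and 0 reversed. Of 64 values that were not called and had a size of at least 0.2, 14 passed the threshold in at least 1 alternative and 1 reversed: Slc22a30 in NZO/HlLtJ minus CAST/EiJ for the sex difference was -0.93 with limma on the deposited log2 matrix, and the cause was not tested. In 9 of 27 comparisons the number of members called moved by over 1.5 times. Without single libraries that number ran from 1 to 2 for diet in CAST/EiJ and in CAST/EiJ males, 1 to 3 in NZO/HlLtJ, 0 to 2 in NZO/HlLtJ females, 0 to 1 in NZO/HlLtJ males, 0 to 1 for CAST/EiJ minus C57BL/6J, 0 to 2 for NZO/HlLtJ minus CAST/EiJ, 0 to 1 for the diet by sex difference in CAST/EiJ, and 1 to 4 for the sex difference of NZO/HlLtJ minus C57BL/6J. With DESeq2's Wald test it was 2 in CAST/EiJ, 1 in NZO/HlLtJ females, 1 in NZO/HlLtJ males and 4 for the last sex difference; with limma it was 1 in either sex of NZO/HlLtJ. With no run term it was 1 in either sex of NZO/HlLtJ and 1 for NZO/HlLtJ minus CAST/EiJ. With no filter it was 1 in NZO/HlLtJ, 1 in CAST/EiJ males and 0 for NZO/HlLtJ minus CAST/EiJ. With the compared strains alone these were 1, 1 and 0, with 0 for the diet by sex difference in CAST/EiJ and 4 for that sex difference. Over all genes, diet calls ran from 273 to 1004 in NZO/HlLtJ and from 47 to 432 in CAST/EiJ. No paired analysis was possible because the labels give no replicate numbers. The lowest count of a member was 29, for Slc22a30 in a CAST/EiJ female, where counting error weighs most.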

Other observations

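The other marker lists gave these values between the sexes. Over all genes, 25.4% were called higher and 24.5% lower in NZO/HlLtJ females. The shares were 23.7% and 23.9% in CAST/EiJ and 25.1% and 22.7% in C57BL/6J. Of 6 principal cell markers 4 were higher in females of each strain. Of 6 endothelial markers 3 were higher in NZO/HlLtJ females, 5 in CAST/EiJ females and 4 in C57BL/6J females. Of 7 macrophage markers 1 was lower in NZO/HlLtJ females, 2 in CAST/EiJ females and 0 in C57BL/6J females by edgeR. Of 6 markers of B and plasma cells 2 were higher in NZO/HlLtJ females, where 1 library brought the highest sum to 106 CPM beside a median of 4.10. The 6 hepatocyte markers summed to medians of 121 CPM in NZO/HlLtJ females and 214 in males, 5.47 in CAST/EiJ females and 4.67 in males, and 54.4 in C57BL/6J females and 117 in males. None of these lists was at 0 in a whole group.

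Slc22a27 lies between Slc22a26 and Slc22a28 and had its highest level in CAST/EiJ females. Its range was 43.1 to 65.8 CPM in CAST/EiJ females and 1.31 to 3.90 in CAST/EiJ males, 2.64 to 5.53 in NZO/HlLtJ females and 0.107 to 0.433 in males, and 3.43 to 4.41 in C57BL/6J females and 0.0923 to 0.427 in males. Slc22a29, which lies beyond Slc22a28, stood lower in CAST/EiJ than in the other strains in both sexes. The CAST/EiJ libraries were therefore high for Slc22a27 and low for Slc22a29. Of the 100-base words of Slc22a27, 7.07% occur in Slc22a29 transcripts, and 6.24% of those of Slc22a29 occur in Slc22a27. The split of reads between them depends on how they were counted, and its part in these CAST/EiJ levels was not tested.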
